A study of Homo sapiens with 30 samples.

Results

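The degron line is the one arm of this series in which RPB1, the largest subunit of RNA polymerase II, was targeted for degradation and nothing was induced in its place. It comprised 4 of the 30 libraries: 2 untreated and 2 collected 12 h after 100 nM dTAGV-1, taken by the line and treatment that the labels name. All 4 carried the genotype labelled RPB1 degron, all bore the label A549, a line from a human lung adenocarcinoma, and none had received doxycycline. The labels do not say whether the line was 1 clone or whether the 2 libraries of a group came from separate cultures, so p-values measure only the spread between libraries, which may be technical. For comparison, the WT and S5A lines (4 libraries each) carry the same degron and also a doxycycline-induced RPB1 whose C-terminal domain is wild type or has serine 5 changed to alanine. Their untreated groups received neither agent, and their treated groups received 2 µg/mL doxycycline for 24 h and 100 nM dTAGV-1 for 12 h. What was measured was the level of polyadenylated RNA, and the question is which messages were lower and which were kept after the degrader was added.

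RNA polymerase II makes all messenger RNA of the nuclear genome. dTAGV-1 is a small molecule that binds a tag fused to a protein and brings it to the VHL ubiquitin ligase, so that the proteasome destroys it. When synthesis of messages stops, each one declines at the pace of its own decay: mRNAs of signalling factors and transcription factors are in general short-lived, and those of metabolic enzymes and of proteins of the secretory pathway are in general long-lived. The RPB1 protein was not measured in these files.

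Library totals in the degron line ran from 12041660 to 17542322 counts. The library pairs differed by more than sampling noise, with a chi-square per degree of freedom of 8.06 between the untreated and 16.9 between the treated replicates. Each library was counted as its own sample, although this spread may be technical. The difference between the replicates followed the GC content of the transcripts (Pearson's r across 11488 genes 0.72 in the untreated and -0.84 in the treated pair), whereas the fold change between the groups hardly did (r = -0.031). The calls still varied with GC content. Of protein-coding genes averaging 5 CPM or more, 24.7% rose and 32.9% fell at 48 to 54% GC. At 60% GC or more these shares were 10.0% and 23.5%. A correction for GC content took the number of called genes from 8881 to 11705. Genes are not independent replicates, and these values are descriptions.

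Several defining markers of the labelled cell line were absent or low. KRT7 and CEACAM6, defining epithelial genes of A549, were at 0 to 0.160 CPM in the 4 degron libraries, and AKR1B10 at 0 to 0.0577 CPM. In the 2 Mock libraries, the untreated control labelled wild type, KRT7 stood at 1851 and 2023 CPM and AKR1B10 at 5514 and 5488 CPM. KRT8 and KRT18, keratins of simple epithelia, remained at 76.6 to 110 CPM and 25.6 to 38.7 CPM in the degron libraries, against 5500 and 5803 CPM and 2894 and 2899 CPM in Mock. NKX2-1, a lung transcription factor, went the other way, with 10.3 and 10.6 CPM in the untreated degron libraries against 0.307 and 0 CPM in Mock, and fell with dTAGV-1. Of this list 2 of 14 tested genes rose with dTAGV-1 and 2 fell (summed 147 and 128 CPM untreated, 122 and 157 CPM treated, with TFF1 and CEACAM6 at 0 in all 4). CDKN2A, known to be deleted in A549, stood at 150 and 111 CPM in the untreated degron libraries and at 0 in both Mock libraries. The libraries are therefore called by their labels here, no cell type is assigned to them, and Mock entered no comparison. Leaving Mock out of the fit changed no call among the genes named below. Of the HEK293 and embryonic kidney markers, 6 of 8 fell with dTAGV-1 and 0 rose, from a summed 1897 and 1960 CPM to 505 and 518 CPM, among them IRS4, an adaptor of the insulin receptor (1374 and 1462 CPM untreated, 174 and 147 CPM treated). Of the immune markers 2 of 3 tested rose (summed 3.71 and 4.16 CPM untreated, 11.4 and 14.3 CPM treated, with PTPRC at 0 in both untreated libraries), of the endothelial ones 2 of 4 (3.12 and 2.64 to 6.05 and 7.45 CPM, with EMCN at 0 in all 4) and of the fibroblast ones 0 of 2. For comparison, 23.1% of all tested genes rose and 21.4% fell. The risen immune and endothelial genes, CD14, LYZ, PECAM1 and TEK, stood at 0 to 0.464 CPM untreated. Of tested genes with counts but under 0.3 CPM untreated 49.8% rose, and of those at 0.3 to 1 CPM 26.2%. The part of these markers in the results was not tested.

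POLR2A (chromosome 17, 7484366 to 7514616, plus strand), which encodes RPB1, checks only the message, since the degron acts on the protein. It was counted at 460.1 and 288 CPM untreated and 410.2 and 688 CPM treated. The groups overlapped, and the difference did not pass the test (log2 fold change 0.55 ± 0.26, adjusted p = 0.092, quasi-likelihood test of edgeR, p-values adjusted by Benjamini-Hochberg). Without untreated replicate 1 it was 0.92 (adjusted p = 0.029) and without treated replicate 1 it was 0.80 (adjusted p = 0.025), against 0.25 and 0.096 without the other libraries. VHL, the ligase that dTAGV-1 recruits, went from 167 and 181 CPM to 121 and 117 CPM and fell (-0.54 ± 0.080, adjusted p = 1.2e-05 in edgeR's test). FKBP1A, the protein from which the dTAG tag derives, went from 482 and 442 CPM to 560.4 and 567 CPM (0.29 ± 0.087, adjusted p = 0.01). The call on FKBP1A was lost without untreated replicate 2 (0.22) and without treated replicate 1 or 2 (0.22 and 0.24). It was also lost in a fit of the degron libraries alone (0.29) and without the low-count filter (0.25). The value of FKBP1A was -0.57 with the authors' factors.

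Of 19982 genes tested, 8881 (44.4%) were called in the degron line at an adjusted p under 0.05, with 4609 risen (23.1%) and 4272 fallen (21.4%). Both treated libraries lay above both untreated ones for 35.2% of the tested genes and below them for 31.4%. The fit covered all 30 libraries, and 206 of the tested genes had no count in any degron library: they stand in these denominators as not called and are left out of the line's medians. CPM, the usual depth-scaled count, was computed on library sizes scaled by TMM, which places the typical gene at no change, so risen and fallen are relative to it: the median log2 fold change was 0.058. The same values were also set on the scaling factors that the authors' deposited table implies for these 4 libraries. On these, the total count in the treated libraries was 56.4% of that in the untreated ones and the median log2 fold change was -0.80, with 1395 genes risen (6.98%) and 12371 fallen (61.9%). Scaling by the 13 mitochondrially encoded mRNAs, whose synthesis does not use RNA polymerase II, gave a median of -0.42, with 1942 risen (9.72%) and 8499 fallen (42.5%). In bulk RNA, fewer cells of a type and less RNA per cell cannot be told apart. The level left, used throughout, is the treated mean as a percentage of the untreated mean on the authors' factors, and its median over the 19396 tested genes with a count in an untreated library was 56.8%. Among 11018 protein-coding genes averaging 5 CPM or more, 279 (2.53%) kept under 20% of their level and 385 (3.49%) stood above 100%. On the TMM scale 28.4% of these 11018 genes fell and 18.9% rose.

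**Figure D1:**
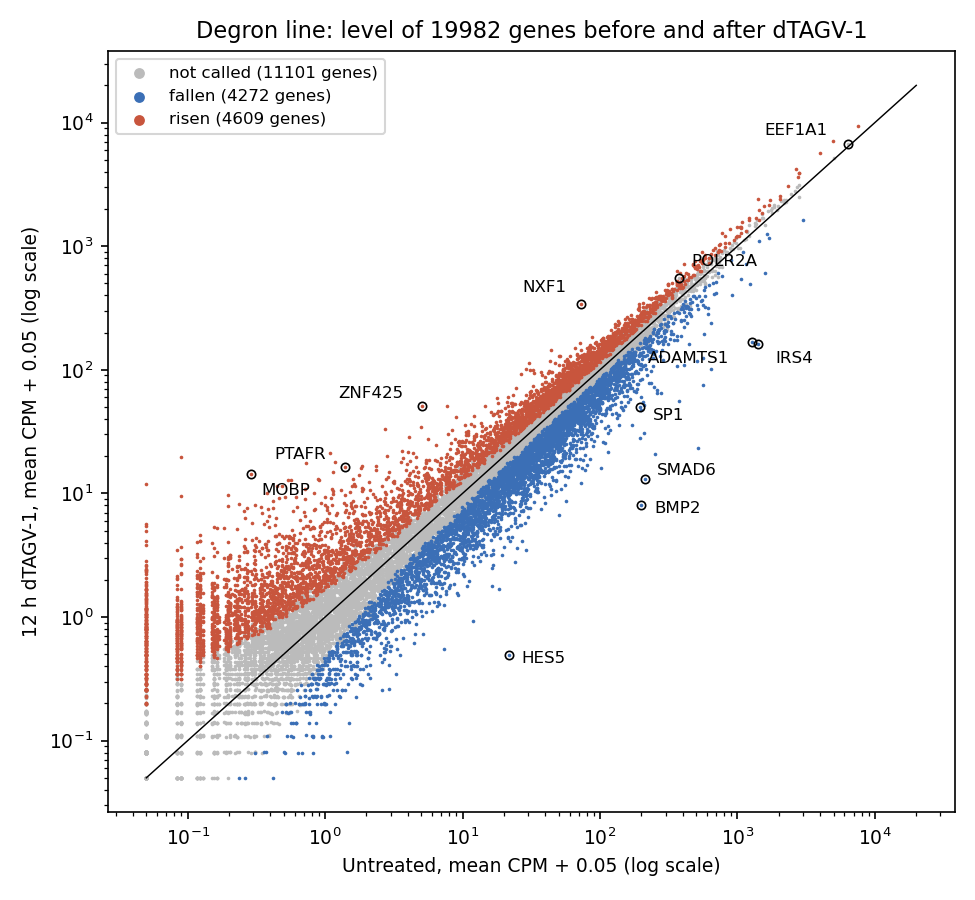
Mean CPM (TMM scaling) of each of the 19982 tested genes in 2 untreated and 2 dTAGV-1-treated degron libraries, on log axes with 0.05 CPM added; the line marks equal levels and circles mark named genes. HES5, BMP2 and SMAD6 lie far below the line, EEF1A1 lies near it, and a cloud of genes under 1 CPM before treatment lies above it.

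Several of the deepest losses were in developmental signals and in genes that answer them. BMP2, a secreted bone morphogenetic protein (chromosome 20, 6767664 to 6780280, plus strand), was counted at 215 and 185 CPM untreated and 8.07 and 8.02 CPM treated. Both treated libraries lay far below both untreated ones (-4.64 ± 0.15, adjusted p = 3.4e-15, edgeR's test), and 2.22% of the level was left. HES5, a repressor induced by Notch, went from 24.5 and 18.9 CPM to 0.306 and 0.577 CPM (-5.58 ± 0.38, adjusted p = 5.3e-10), the largest fall of any named gene, with 1.11% left. HEY1, another Notch-responsive repressor, went from 365 and 382 CPM to 57.1 and 55.1 CPM (-2.73 ± 0.091). Of the TGF-beta list, which holds SMAD7, BAMBI and SKI among the genes that follow, 12 of 25 fell and 4 rose (median -0.33). The share fallen was 48%, against 28.4% of protein-coding genes averaging 5 CPM or more. SMAD6, an inhibitory SMAD, kept 3.36% of its level, NOG, which encodes the secreted BMP antagonist noggin, 4.03%, SMAD7 11.5% and BAMBI, a decoy receptor, 16.9%, whereas SKI, a corepressor of SMADs, kept 57.6% and was not called (0.067 ± 0.11, adjusted p = 0.65). ID3, a dominant-negative partner of bHLH factors that BMP signals induce, went from 219.9 and 170.4 CPM to 25.4 and 30.9 CPM (-2.79 ± 0.18).

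Other strongly reduced messages had varied roles. ADAMTS1, a secreted metalloprotease, stood at 1276 and 1264 CPM untreated and 160.1 and 176 CPM treated, with the replicates of each group close together (-2.92 ± 0.075, adjusted p = 7.2e-17 in edgeR's test). SNAI2, a zinc finger repressor of epithelial genes, went from 44.3 and 56.1 CPM to 7.03 and 6.12 CPM (-2.93 ± 0.16). For both genes the groups did not overlap. TRIB1, a pseudokinase adaptor, kept 8.35% of its level, KCNJ11, a potassium channel subunit, 4.91%, FJX1, a secreted protein, 7.93% and BNIP1, a SNARE of the ER, 8.19%. HSPA1B, an inducible HSP70 chaperone, went from 545 and 570.5 CPM to 71.1 and 80.5 CPM (-2.88 ± 0.10, adjusted p = 1.6e-14). Its value is uncertain, because reads can be shared with its near-identical neighbour HSPA1A. KAT5, a histone acetyltransferase, stood at 26.2 and 22.1 CPM and then 2.69 and 2.77 CPM (-3.14 ± 0.23). MYC kept 2.45% of its level.

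**Figure D2:**
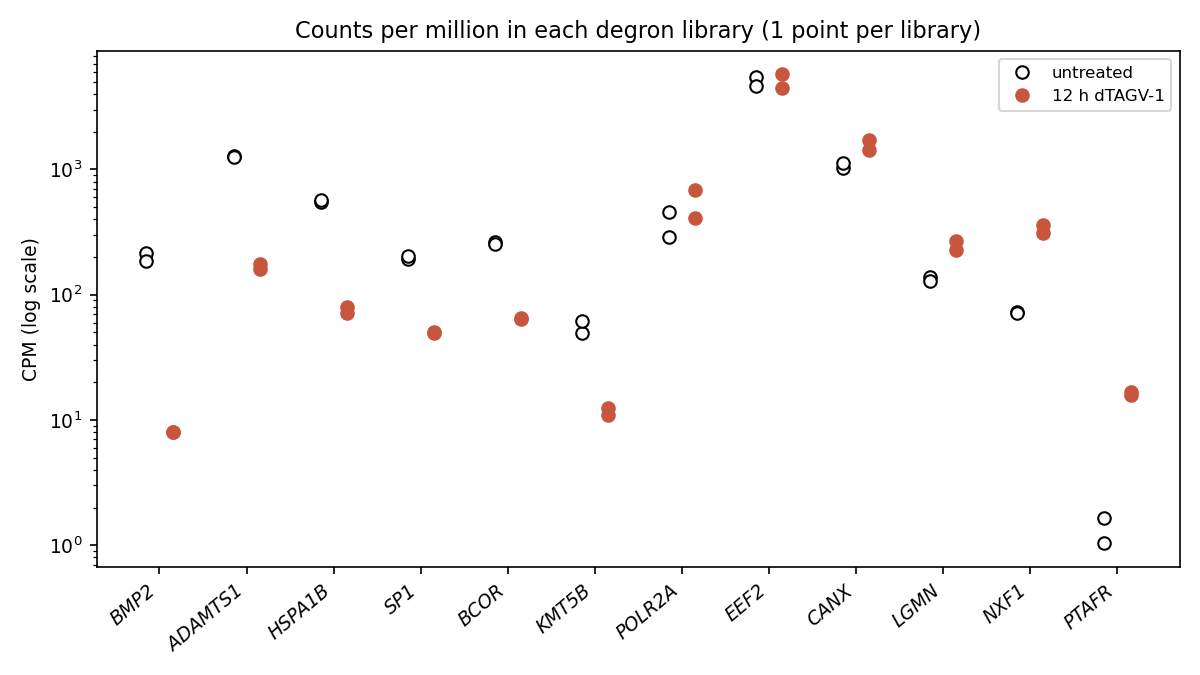
CPM (TMM scaling, log axis) of 12 genes in each degron library, open points for the 2 untreated and filled points for the 2 treated libraries. The groups lie apart for BMP2, ADAMTS1, HSPA1B, SP1, BCOR, KMT5B, CANX, LGMN, NXF1 and PTAFR and overlap for POLR2A and EEF2.

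Families of transcription factor genes held many fallen members. Of all tested genes 21.4% fell, and of protein-coding genes averaging 5 CPM or more 28.4%. Against these shares, 26 of 40 bHLH factors fell and 2 rose, with a median log2 fold change of -0.68 and a median of 34.4% left. Of the homeobox factors 31 of 49 fell and 2 rose (median -0.68, 34.7% left), and of the forkhead factors 19 of 33 fell and 2 rose (median -0.64, 35.8% left). Among the BTB zinc finger proteins 24 of 40 fell and 4 rose (median -0.62), and among the nuclear receptors 19 of 36 fell and 1 rose (median -0.48). The SOX factors, with 6 of 14 fallen and 2 risen (median -0.23), and the ETS factors, with 6 of 20 fallen and 4 risen (median -0.15), had smaller shares fallen than these. The ETS share fallen, 30%, was near the 28.4%. Leaving out 1 library took the SOX median to between -0.46 and -0.23 and the ETS median to between -0.26 and -0.11, and the 7 SOX genes averaging 5 CPM or more had a median of -0.55. All 7 medians were negative with all 3 scalings. FOXC1, a forkhead regulator of mesenchyme, was counted at 215 and 204 CPM untreated and 52.0 and 51.3 CPM treated, with no overlap (-2.02 ± 0.098, adjusted p = 1.3e-12 in edgeR's test). FOXF2, a relative, kept 16.1% of its level. SOX4 went from 141 and 146 CPM to 51.4 and 47.6 CPM (-1.54 ± 0.098), and SOX12 kept 14.1%. NR2F2, an orphan nuclear receptor, went from 100.3 and 90.3 CPM to 29.7 and 28.1 CPM (-1.72 ± 0.10), and NR1H2, a receptor for oxysterols, kept 14.6%. ADNP and ZHX2, both homeobox proteins, kept 21.1% and 19.5%, and ZBTB22 and ZBTB12, of the BTB class, kept 6.51% and 10.3%.

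The exceptions within these families stood out by name. MXD1, which competes with MYC for its partner MAX, rose from 8.09 and 10.3 CPM to 27.7 and 23.8 CPM (1.49 ± 0.14, adjusted p = 4.6e-08 in edgeR's test) while MYC fell. PPARD, a fatty acid-sensing nuclear receptor, rose from 48.6 and 41.1 CPM to 71.7 and 95.1 CPM (0.89 ± 0.17). POU4F1 (0.45 ± 0.10), ETV3 (0.58 ± 0.096) and ZBTB6 (1.14 ± 0.26) also rose relative to the typical gene. With the authors' factors MXD1 and PPARD stood at 0.63 and 0.031, ZBTB6 at 0.30, of which MXD1 alone passed the test, and POU4F1 and ETV3 turned to -0.42 and -0.27.

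Of the general promoter-binding factors most members fell. Of these promoter-binding proteins 17 of 25 fell and 1 rose, with a median of -0.57 and 37.4% left. The share fallen was 68%, against 28.4% of protein-coding genes averaging 5 CPM or more. SP1, which binds GC boxes, was counted at 192 and 202 CPM untreated and 50.3 and 49.5 CPM treated (-1.98 ± 0.088, adjusted p = 4.2e-13 in edgeR's test). Its treated replicates were nearly equal and lay below both untreated ones. CTCF, which binds insulators and loop anchors, went from 116 and 127 CPM to 44.8 and 42.8 CPM (-1.47 ± 0.079). HCFC1, a chromatin-bound coregulator, went from 298 and 249 CPM to 116 and 140.2 CPM (-1.09 ± 0.18), and ELF2, an ETS factor, kept 24.8% of its level.

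**Figure D3:**
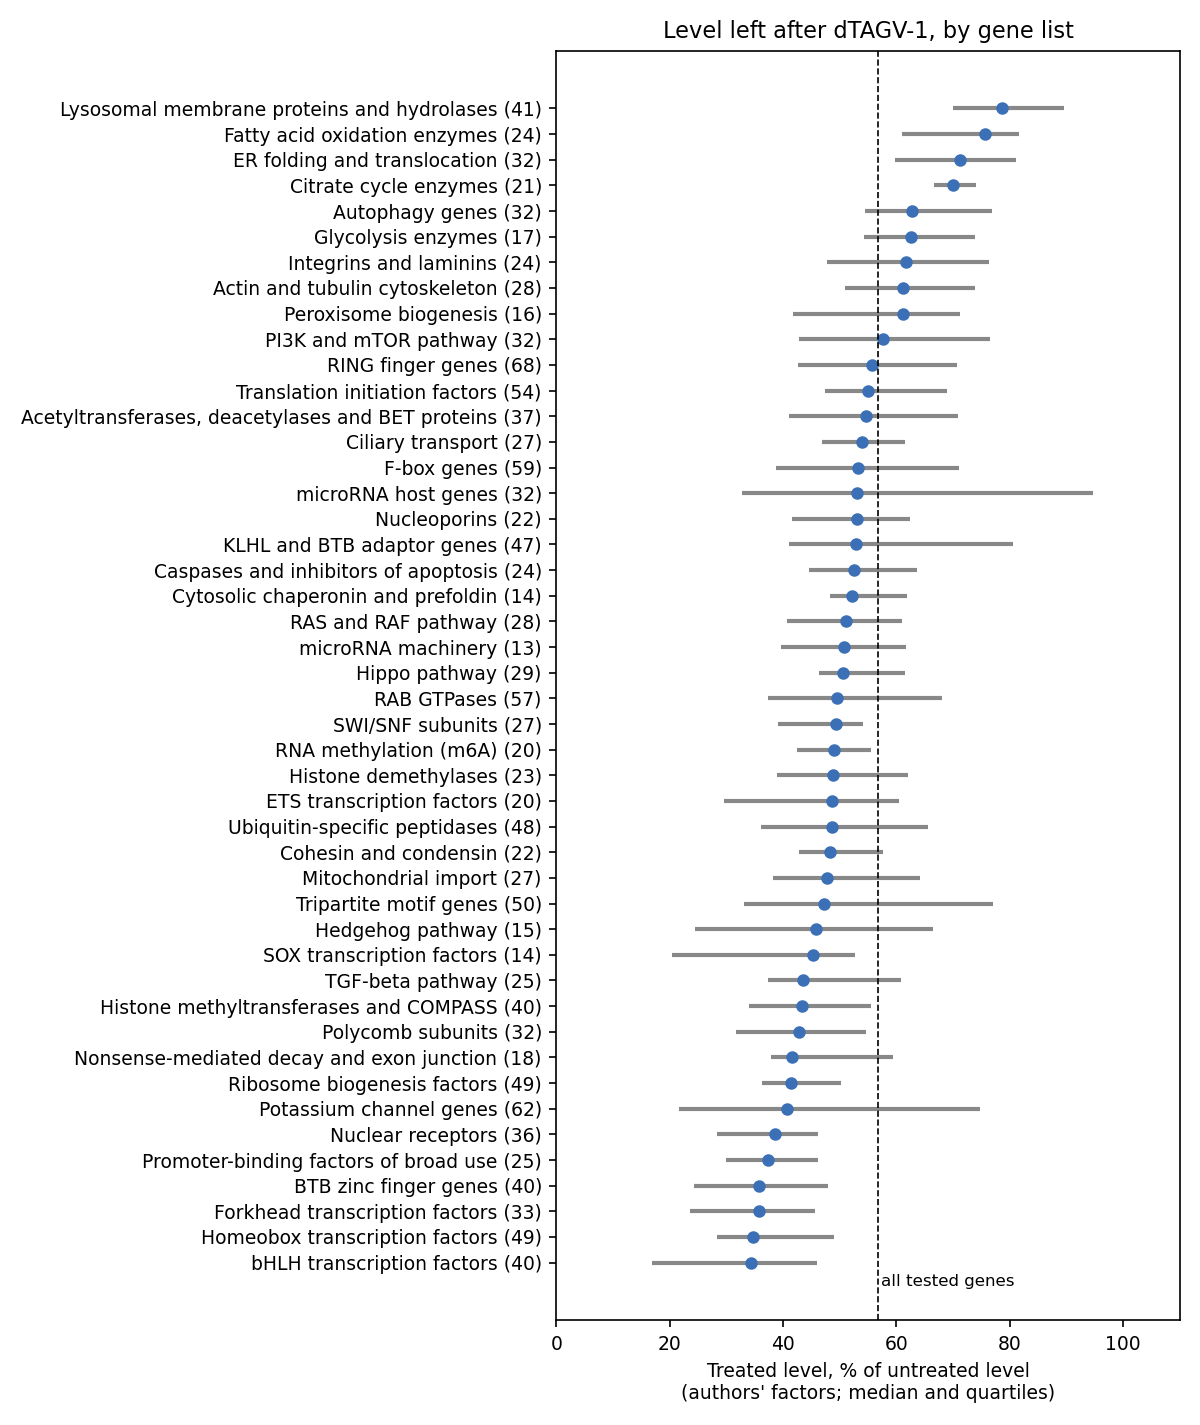
Median level left after dTAGV-1 (points) with quartiles (bars) for the gene lists with at least 12 tested members, on the scaling by the authors' factors. The solute carriers and the transmembrane protein genes are not drawn. Numbers in parentheses count tested members and the dashed line marks the 56.8% of all tested genes. The transcription factor lists from bHLH to nuclear receptors lie between 34.4% and 38.5%, and the lysosomal list lies highest at 78.7%.

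The lists of chromatin regulators differed in their counts, against 28.4% fallen and 18.9% risen of protein-coding genes averaging 5 CPM or more. Of the Polycomb subunits, which keep developmental genes silent, 18 of 32 fell and 2 rose (median -0.36, 42.8% left). BCOR, a subunit of a variant Polycomb complex, was counted at 263 and 252 CPM untreated and 64.1 and 65.6 CPM treated (-1.99 ± 0.092, adjusted p = 6.3e-13 in edgeR's test), and AEBP2 kept 22.3%. RBBP7, the most abundant member by CPM, kept 42.4%. Of the histone methyltransferases and COMPASS subunits 22 of 40 fell and 3 rose (median -0.35). KMT5B, which methylates histone H4, went from 49.1 and 61.3 CPM to 12.4 and 11.0 CPM (-2.23 ± 0.13), SETDB1, which marks silenced repeats, kept 16.8% and WDR82, a COMPASS subunit that binds the phosphorylated C-terminal domain of RPB1, kept 31.6%. In the next 4 lists the shares fallen, 29.6%, 27.3%, 30.4% and 27.0% in order, were near that 28.4%. The medians of the first 3 of them moved when 1 library was left out. Of SWI/SNF subunits 8 of 27 fell and 2 rose (median -0.17, with ARID2 at -1.28 ± 0.15 and SMARCC1 at 0.16 ± 0.078, the latter not called, adjusted p = 0.11 in edgeR's test), of cohesin and condensin genes 6 of 22 fell and 4 rose (median -0.20, with the condensin subunit NCAPH at -1.87 ± 0.086 and the cohesin subunit SMC1A at 0.079 ± 0.072, not called, adjusted p = 0.4) and of histone demethylases 7 of 23 fell and 3 rose (median -0.18, with JMJD6 at -1.10 ± 0.096 and KDM4D at 1.23 ± 0.14). The SWI/SNF median was -0.32 without treated replicate 2. The cohesin and condensin median was -0.39, with 9 fallen, without treated replicate 1, -0.10 without treated replicate 2 and -0.073, with 4 fallen, without untreated replicate 2. That of the demethylases was -0.064 without untreated replicate 1 and -0.27, with 1 risen, without treated replicate 1. Of acetyltransferases, deacetylases and BET proteins 10 of 37 fell and 7 rose (median -0.010, from -0.14 to 0.043 without 1 library), or 2 rose without untreated replicate 2 and 4 without treated replicate 2. BRD2, a BET reader of acetylated histones, went from 574 and 580.2 CPM to 312 and 336 CPM (-0.83 ± 0.082).

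The lists of RNA factors differed in their counts, against 21.4% fallen of all tested genes and 28.4% of protein-coding genes averaging 5 CPM or more. Ribosome biogenesis had 29 of 49 fallen and 2 risen (median -0.41, 41.4% left), and nonsense-mediated decay with the exon junction complex had 11 of 18 fallen and 2 risen (median -0.40). The latter count was 7 without untreated replicate 1 and 7 without treated replicate 1. UTP18, a subunit of the small-subunit processome, was counted at 81.9 and 86.3 CPM untreated and 18.3 and 19.3 CPM treated (-2.16 ± 0.10, adjusted p = 7.6e-13 in edgeR's test), and RRS1 kept 16.3%. NCL, the abundant nucleolar protein nucleolin, stood at 2196 and 2289 CPM and 2203 and 2344 CPM and was not called (0.020 ± 0.070, adjusted p = 0.85). NOLC1, another nucleolar protein, rose (0.59 ± 0.065, but -0.27 with the authors' factors). SMG9, part of the kinase complex that starts nonsense-mediated decay, fell (-2.33 ± 0.17) and kept 10.9%. RNPS1, an exon junction protein, kept 42.5%. The m6A list, of enzymes and readers of methylated adenosine, held 7 fallen and 2 risen of 20 (median -0.17; 4 fell without untreated replicate 2), with the reader IGF2BP1 going from 435 and 457 CPM to 163 and 158 CPM (-1.47 ± 0.069) and the ribosomal RNA methylase METTL5 keeping 25.8%. Of the nucleoporins 9 of 22 fell and 3 rose, with NUP62, of the central channel, at -1.66 ± 0.14 and NUP35 at -1.56 ± 0.14. Of 54 translation initiation factors 11 fell and 12 rose (median -0.0011). The number fallen was 5 without untreated replicate 2 and 6 without treated replicate 2, and the number risen was 6 without either untreated replicate 1 or treated replicate 1. EIF1, which selects start codons, went from 399 and 419 CPM to 219.6 and 228 CPM (-0.87 ± 0.072), while EIF4G1, the scaffold of the cap-binding complex, was not called (0.15 ± 0.12, adjusted p = 0.31).

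Members of other signalling pathways changed in both directions. For comparison, 28.4% of protein-coding genes averaging 5 CPM or more fell and 18.9% rose. In the Hedgehog list 6 of 15 fell and 3 rose: PTCH1, the receptor that Hedgehog signals themselves induce, went from 55.4 and 52.9 CPM to 17.4 and 22.8 CPM (-1.43 ± 0.14), GLI2, an effector, kept 20.9% and SMO, the signal transducer, was not called (0.038 ± 0.20, adjusted p = 0.9, edgeR's test). In the Hippo list 6 of 29 fell (20.7%, near the 21.4% of all tested genes) and 3 rose, or 1 without untreated replicate 2 and 0 without treated replicate 2. AMOT, a scaffold that retains YAP in the cytoplasm, went from 1518 and 1673 CPM to 623 and 601 CPM (-1.38 ± 0.064), and TEAD4, a DNA-binding partner of YAP, kept 21.1%. For the PI3K and mTOR list, 11 of 32 rose and 7 fell (7 rose without either untreated replicate 2 or treated replicate 2), with DDIT4, a stress-induced inhibitor of mTOR, at -1.37 ± 0.21 and the regulatory subunit PIK3R3 at 1.26 ± 0.12. ARAF, a RAF kinase, kept 17.6%. Of the SOCS genes, inhibitors of cytokine receptors, SOCS2 fell (-1.88 ± 0.14) and SOCS7 rose (0.91 ± 0.087).

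On the TMM scale most members of the lysosomal, fatty acid oxidation, ER and citrate cycle lists rose. Against 23.1% of all tested genes, 30 of 41 lysosomal genes rose and 1 fell, with a median of 0.51 and 78.7% of the level left. Without treated replicate 2, 18 rose. Fatty acid oxidation had 15 of 24 risen and 1 fallen (median 0.46, 75.6% left), protein folding and translocation in the ER 18 of 32 risen and 1 fallen (median 0.37, 71.3% left) and the citrate cycle 13 of 21 risen and 0 fallen (median 0.35, 70.0% left; 8 rose without treated replicate 1). These rises were relative to the typical gene. With mitochondrial scaling the medians were 0.023, -0.028, -0.11 and -0.14, and with the authors' factors -0.35, -0.40, -0.49 and -0.51, where 1, 0, 0 and 0 members rose and 16, 14, 20 and 17 fell. SMPD1, lysosomal acid sphingomyelinase, was counted at 12.2 and 9.52 CPM untreated and 26.3 and 33.2 CPM treated (1.45 ± 0.20, adjusted p = 4.3e-06 in edgeR's test), and stood at 0.59 with the authors' factors. PSAP, the abundant precursor of the saposins, went from 659.9 and 614 CPM to 796 and 926 CPM (0.44 ± 0.10, but -0.43 with the authors' factors, and 0.28 and not called without treated replicate 2). GLA, alpha-galactosidase, was the lysosomal gene that fell (-0.90 ± 0.082).

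The carnitine shuttle brings fatty acids into mitochondria. CPT2, its inner membrane enzyme, went from 28.7 and 29.4 CPM to 63.1 and 60.8 CPM (1.09 ± 0.11), whereas CPT1A, the regulated outer membrane enzyme, went from 65.6 and 63.4 CPM to 40.5 and 44.7 CPM (-0.60 ± 0.092). The 2 treated values of CPT2 were above its untreated ones and those of CPT1A below. HADHA, of the beta-oxidation complex, kept 74.1%, and IDH1, a cytosolic isocitrate dehydrogenase, 93.9%. The citrate cycle enzyme MDH2 was not called (0.31 ± 0.15, adjusted p = 0.11 in edgeR's test). In the ER, the chaperone CANX went from 1033 and 1123 CPM to 1714 and 1439 CPM (0.55 ± 0.11, but -0.31 with the authors' factors, and 0.34 and not called without treated replicate 1) and DNAJC3 stood at 0.94 ± 0.20, while XBP1, a transcription factor that induces ER chaperones, fell (-0.75 ± 0.080) and kept 32.9%. HK2, the first enzyme of glycolysis, fell (-0.69 ± 0.10), ENO1 near the end of the pathway was not called (0.062 ± 0.10, adjusted p = 0.66), and of that list 6 of 17 rose and 3 fell, with 2 risen without untreated replicate 2 and 2 without treated replicate 2. Of the autophagy genes 11 of 32 rose, or 7 without untreated replicate 2, and 4 fell. GABARAPL1, an autophagosome protein of the ATG8 family, was among the latter (67.7 and 65.8 CPM to 18.5 and 24.5 CPM, -1.63 ± 0.12), as was ATG3, which conjugates that family to lipid (-0.78 ± 0.10). Of the mitochondrial import genes 11 of 27 fell, or 7 without untreated replicate 1, and 5 rose, with the carrier chaperone TIMM9 at -1.43 ± 0.19 and the matrix chaperone HSPD1 at 0.20 ± 0.11, the latter not called (adjusted p = 0.17). Of the peroxisome biogenesis genes 6 of 16 fell, or 3 without untreated replicate 1, and 5 rose, or 3 without untreated replicate 1 and 2 without treated replicate 1. Of the nuclear lamins, LMNB1 kept 30.4% and LMNA 101%. The list counts given here stand beside 18.9% risen and 28.4% fallen of protein-coding genes averaging 5 CPM or more.

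Among larger families of mixed function the members spread both ways. Of protein-coding genes averaging 5 CPM or more, 28.4% fell and 18.9% rose. Of ubiquitin-specific peptidases 21 of 48 fell and 4 rose (median -0.18), with USP31 at -1.39 ± 0.11 and USP22, a SAGA subunit, at -0.75 ± 0.082. Of the F-box genes, substrate receptors of ubiquitin ligases, 18 of 59 fell (30.5%, near that 28.4%) and 16 rose (27.1%, near the 23.1% of all tested genes), with FBXO41 at -1.62 ± 0.21 and FBXO48 at 2.15 ± 0.20. The number risen was 8, 8 and 9 without untreated replicate 1, untreated replicate 2 and treated replicate 1. Of 259 solute carriers 68 rose (26.3%, near the 23.1% of all tested genes) and 41 fell, with a median of 0.080, or 0.018 without treated replicate 1, 0.028 without treated replicate 2 and 0.12 without untreated replicate 1. The amino acid transporter SLC38A2 fell from 183 and 231 CPM to 63.9 and 44.9 CPM (-1.93 ± 0.22), as did the nucleoside transporter SLC29A2 (-1.99 ± 0.22). TRIM71, a regulator of stem cell mRNAs, kept 12.0%, KCNC4, a voltage-gated potassium channel, 13.7% and RAB9A, a GTPase of late endosomes, 20.4%. The adaptor KLHL28 rose (1.64 ± 0.21).

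Several abundant housekeeping messages did not pass the test against the typical gene. EEF1A1, the elongation factor that delivers tRNA, was counted at 6056 and 6654 CPM untreated and 6803 and 6684 CPM treated (0.086 ± 0.077, adjusted p = 0.39 in edgeR's test). EEF2 (0.014 ± 0.16, adjusted p = 0.96), RPL3 (0.15 ± 0.12, adjusted p = 0.32), HSP90AB1 (0.10 ± 0.062, adjusted p = 0.19) and ACTG1 (0.089 ± 0.12, adjusted p = 0.58) were not called either, and kept 55.5%, 61.1%, 59.1% and 58.5%. With a correction for GC content RPL3 was called (0.13, adjusted p = 0.028, edgeR), and among genes averaging 5 CPM or more HSP90AB1 was (0.15, adjusted p = 0.024). Of the genes averaging 100 CPM or more over untreated and treated degron libraries together, NXF1 rose most. NXF1 is the receptor that exports mRNA from the nucleus (chromosome 11, 62792123 to 62806302, minus strand). It was counted at 73.4 and 70.9 CPM untreated and 312 and 363 CPM treated (2.23 ± 0.10, adjusted p = 5.9e-13), and on the authors' factors it stood at 253% and 262% of the untreated level in the 2 treated libraries. The other genes at that mean rose less. Like NXF1, GGCX and TIMP2 were under 100 CPM untreated and passed this limit only through the treated libraries. GGCX, the vitamin K-dependent carboxylase of the ER, went from 70.9 and 72.8 CPM to 168 and 163 CPM (1.20 ± 0.079), TIMP2, a metalloprotease inhibitor, from 64.4 and 67.7 CPM to 147 and 154 CPM (1.19 ± 0.091) and LGMN, a lysosomal protease, from 139 and 129 CPM to 226 and 269.7 CPM (0.88 ± 0.11). PCYOX1 (1.07 ± 0.14), SPRING1 (1.00 ± 0.089), TOB2 (0.91 ± 0.11) and RETSAT (0.89 ± 0.11) also rose. These 8 genes stood between 102% and 257% on the authors' factors, with which NXF1 and GGCX passed the test and the other 6 did not.

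Many genes that were nearly silent before treatment gained counts. The genes that were under 1 CPM in both untreated libraries of the WT line (46481 genes) took 0.309% and 0.294% of the counts in the untreated degron libraries and 0.602% and 0.614% in the treated ones. These are shares of each library's own total. On the authors' factors the treated total was 56.4% of the untreated one. Of 2410 tested genes with counts but under 0.3 CPM in the untreated degron libraries 49.8% rose and 0.124% fell. A gene that low passed the low-count filter only through libraries in which it was higher, so these shares describe the filter as well as the cells. With the authors' factors 829 of the 2410 rose and 38 fell, and with mitochondrial scaling 938 rose and 9 fell. MOBP, a myelin protein of oligodendrocytes, went from 0.398 and 0.0800 CPM to 15.6 and 12.8 CPM (5.76 ± 0.32, adjusted p = 3.7e-11 in edgeR's test). ELAPOR1 (4.73 ± 0.20) and CORIN (3.88 ± 0.23) also rose from under 1 CPM. Other genes rose from low levels above 1 CPM. PTAFR, the receptor for platelet-activating factor, went from 1.66 and 1.04 CPM to 16.8 and 15.8 CPM (3.56 ± 0.17), ZNF425, a zinc finger gene, from 4.97 and 5.04 CPM to 45.5 and 55.9 CPM (3.34 ± 0.18) and MYH15 from 2.25 and 3.12 CPM to 33.1 and 33.4 CPM (3.64 ± 0.20). Of the genes under 1 CPM that rose at least 4-fold, 1158 had a position in GENCODE 29, and 233 of these (20.1%) lay within 20 kb downstream of a gene on the same strand with at least 5 CPM and overlapped none. The share was 16.6% (87 of 524) for those risen by less and 12.5% (337 of 2690) for those not called. Overlap with such an expressed gene was found for 24.3% (281), 38.4% (201) and 36.0% (969) of the 3 sets. The overlapping genes could not count as downstream but stay in the denominators. The 3 downstream shares therefore cannot be compared directly. These shares are a description without a test, and the cause was not tested.

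On the TMM scale the share of genes that fell was higher among genes with few exons. Of 185 protein-coding genes (5 CPM or more) with a single exon in their longest coding transcript, 48.6% fell, with a median of 43.8% left. The share was 43.6% for 1029 genes with 2 to 3 exons, 27.8% for 2938 with 4 to 7, 27.6% for 4007 with 8 to 15 and 23.2% for 2859 with 16 or more. The shares risen were 17.3%, 14.4%, 20.1%, 19.3% and 18.8% in the same order. With mitochondrial scaling the shares fallen were 67.0%, 65.6%, 56.7%, 58.3% and 57.1%. With the authors' factors they were 86.5%, 84.6%, 82.1%, 84.2% and 85.8%, so that this order of the shares was not kept. The median level left, on the same factors, was 43.8%, 45.3%, 54.2%, 53.6% and 54.7%, lower in the 2 bins with the fewest exons. By gene span (under 10 kb, 10 to 30 kb, 30 to 100 kb and longer) the shares fallen on the TMM scale were 30.4%, 26.6%, 28.2% and 29.3%, and by coding length they ran from 22.8% in the shortest to 31.1% in the third of 5 bins, with no steady order. Genes of the factor families above, such as FOXC1 and SOX4, have few exons, and the bins were not matched for gene family.

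Pumilio proteins bind an element TGTANATA in 3′ UTRs and are known to hasten the decay of the mRNA. The element was searched on the sense strand of 10830 3′ UTRs and found in 28.0% of them. Within UTRs of 300 to under 1000 bases 37.7% of 459 genes with it fell against 25.4% of 2717 without. Within 1000 to under 3000 bases the shares were 36.7% of 1247 and 28.8% of 2431, and from 3000 bases on 31.2% of 1213 and 28.7% of 816. With the authors' factors the shares fallen were 88.7% with and 82.4% without the element in the shortest bin, 87.9% and 84.4% in the middle one and 84.6% and 83.2% in the longest. The median level left was lower with the element in each of the 3 bins (48.7% against 54.6%, 49.7% against 53.8% and 51.2% against 54.3%). For comparison, genes with and without the AU-rich nonamer TTATTTATT, found in 8.42% of the UTRs, fell in 23.8% and 27.3% of cases in the shortest of these bins and in 30.7% and 31.6% in the middle one. In the longest 127 of 438 with it and 485 of 1591 without it fell. For the shorter AU-rich core TATTTAT, which lies within that nonamer, the shares were 30.1% and 26.5%, 31.1% and 31.8%, and 29.8% and 31.0%. The sites below, with 9 bases on either side, belong to genes with a UTR under 1000 bases and are the 4 with the largest falls in this search; capitals mark the element, which was matched as letters only and not as binding.
NOG 3′ UTR, GRCh38 chr17:56595120-56595145, plus strand: atatgtgtgTGTATATAcggtcccag
ZBTB22 3′ UTR, GRCh38 chr6:33314873-33314898, minus strand: ctgtggactTGTATATAttctggaag
FJX1 3′ UTR, GRCh38 chr11:35620781-35620806, plus strand: taccttctcTGTATATAtgtgcataa
ATF4 3′ UTR, GRCh38 chr22:39522623-39522648, plus strand: caatgtgctTGTACATAgagtgctgt
NOG, ZBTB22 and FJX1 kept 4.03%, 6.51% and 7.93% of their level. ATF4, the transcription factor of the integrated stress response, kept 8.67%. The next 3 genes of that search were ID2, a relative of ID3 (-2.10 ± 0.077), BCOR and the helicase DDX59 (-1.95 ± 0.14).

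**Figure D4:**
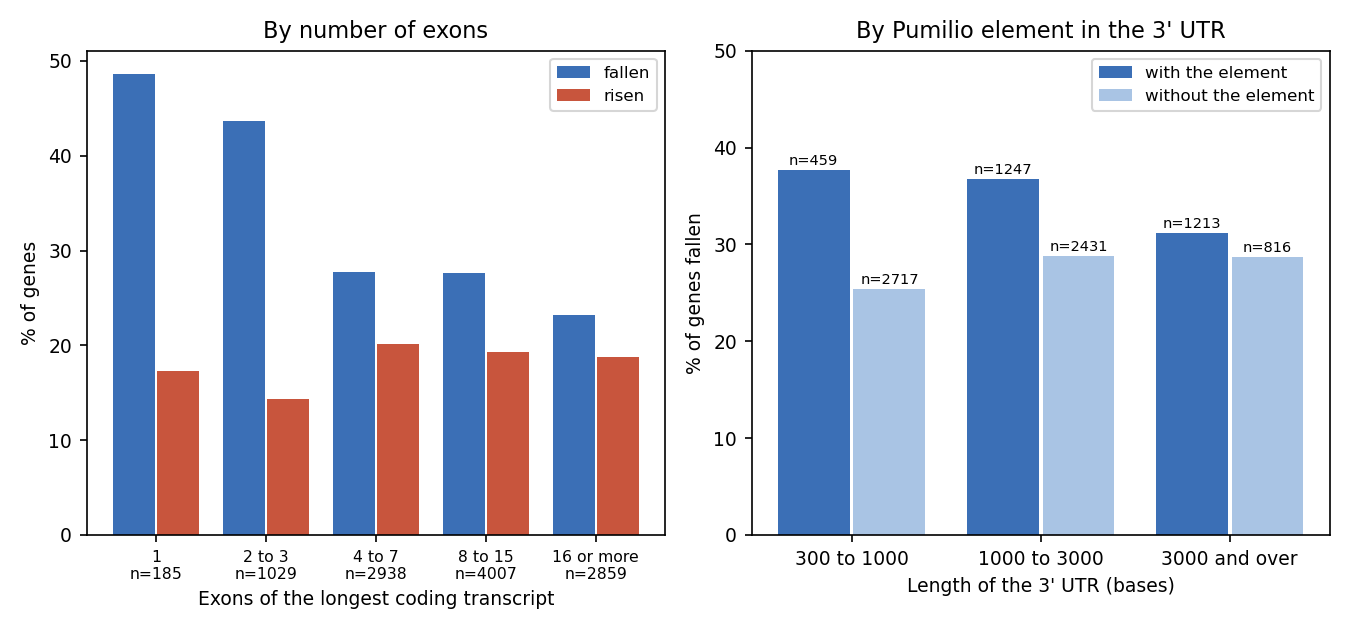
Share of protein-coding genes (5 CPM or more) called fallen or risen by the number of exons (left), and share fallen by the presence of TGTANATA in the 3′ UTR within bins of UTR length (right); n counts genes. The bars for 1 and for 2 to 3 exons reach 48.6% and 43.6% fallen, and in each UTR bin the bar with the element is the higher one.

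Promoters of the genes that changed most were read from RefSeq (build GRCh38.p14), in which 9049 of the 11018 protein-coding genes at this level matched by symbol. A TATA box, searched as TATAAA or TATATA on the sense strand and starting 40 to 20 bases before the start site, was found in 1.65% of all of them. It was found in 8.33% of 60 promoters of genes lower by at least 4-fold, in 10.3% of 39 higher by at least 4-fold and in 1.44% of 8179 within 2-fold, which are 5, 4 and 118 promoters. Among smaller changes, of 2- to 4-fold, it was found in 3.25% of 615 promoters of lower and in 1.28% of 156 of higher genes. The counts are small and have no test. The median number of CG dinucleotides in the 300 bases was 26 for the genes lower by at least 4-fold, 10 for those higher by at least 4-fold and 27 for those within 2-fold. The limit of 5 CPM applied to the mean of untreated and treated libraries together. Genes higher by at least 4-fold could pass it through the treated libraries alone, as MOBP did. The TATA shares and CG numbers therefore describe this limit as well as the genes. The 60 bases before the start site are shown for 3 of the genes described above, with the TATA match in capitals. The named gene that fell most and the gene averaging 100 CPM or more that rose most both hold one.
HES5, GRCh38.p14 chr1:2530264-2530323, minus strand: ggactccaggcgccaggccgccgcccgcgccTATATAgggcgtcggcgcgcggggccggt
HSPA1B, GRCh38.p14 chr6:31827678-31827737, plus strand: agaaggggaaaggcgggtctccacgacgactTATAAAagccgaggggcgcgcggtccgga
NXF1, GRCh38.p14 chr11:62805441-62805500, minus strand: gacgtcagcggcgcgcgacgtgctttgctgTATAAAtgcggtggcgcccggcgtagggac
The match begins 29 bases before the start site in HES5 and HSPA1B and 30 bases before it in NXF1. HES5 and HSPA1B fell and NXF1 rose.

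The WT line received the same 12 h of dTAGV-1 while a wild-type RPB1 was induced. It also received doxycycline, which cannot be told apart from the induced protein. Within the WT line itself 985 genes (4.93%) were called, and within the S5A line 9928 (49.7%). In the test of the difference between the lines, 2403 of 19982 genes (12.0%) changed unequally, 1646 (8.24%) higher in WT and 757 (3.79%) lower. With the authors' factors 6806 were higher and 152 lower. The number was 573 in a fit of these 2 lines' libraries alone, 1504 without degron untreated replicate 1 and 5844 with a correction for GC content. The falls of the genes above that differed were smaller in WT. Many of them were named for large falls in the same degron libraries, which by itself favours this direction. BMP2 stood at -1.48 ± 0.13 in the WT line against -4.64 ± 0.15 in the degron line, a difference of 3.16 ± 0.19 (adjusted p = 3.1e-10, edgeR's test), ADAMTS1 differed by 2.20 ± 0.099 (adjusted p = 4.5e-12), and HES5 by 5.05 ± 0.50 (adjusted p = 1.2e-06). HSPA1B stood at 0.24 ± 0.097 in WT, a difference of 3.12 ± 0.14 (adjusted p = 4.5e-12). The factors SP1, CTCF and BCOR stood at -0.27 ± 0.085, -0.33 ± 0.077 and -0.25 ± 0.088 in WT, with differences of 1.71 ± 0.12, 1.15 ± 0.11 and 1.74 ± 0.13 (adjusted p = 5.7e-09, 4.6e-07 and 7.7e-09). SMG9 and GABARAPL1 differed by 2.41 ± 0.23 and 1.60 ± 0.17 (adjusted p = 4.6e-07 and 2.0e-06). By list, 17 of 49 homeobox, 15 of 40 bHLH, 12 of 33 forkhead and 12 of 40 BTB zinc finger genes were higher in WT than in the degron line by this test, with medians in WT of -0.070, -0.075, 0.0037 and -0.070. At the other end 10 of 32 ER, 8 of 24 fatty acid oxidation, 6 of 41 lysosomal and 5 of 21 citrate cycle genes were lower in WT. These counts by list, and the differences of single genes, are on the TMM scale. With the authors' factors only 152 of all 19982 genes were lower in WT, so the lower counts cannot be carried over to that scale. NXF1 rose in WT as well (0.88 ± 0.098), by less than in the degron line (difference -1.35 ± 0.14, adjusted p = 1.2e-06).

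Between the S5A and degron lines 1274 genes (6.38%) differed, 640 (3.20%) higher and 634 (3.17%) lower in S5A. The number was 386 with the authors' factors and 4702 with the GC correction, and 796, 633 and 736 without degron untreated replicate 1, untreated replicate 2 and treated replicate 2. HES5 fell less in S5A (-1.95 ± 0.32, difference 3.63 ± 0.56, adjusted p = 5.6e-04 in edgeR's test), as did KMT5B (-0.32 ± 0.12, difference 1.91 ± 0.18, adjusted p = 1.9e-06), SP1 (difference 1.30 ± 0.12, adjusted p = 1.7e-06), BCOR (0.94 ± 0.13, adjusted p = 1.2e-04), NR2F2 (0.83 ± 0.14, adjusted p = 0.0012) and ADAMTS1 (0.68 ± 0.10, adjusted p = 3.0e-04). BMP2 stood at -4.10 ± 0.15 in S5A and did not pass the test of the difference (0.54 ± 0.20, adjusted p = 0.12). IRS4 and AMOT fell further in S5A than in the degron line, by -0.97 ± 0.16 (adjusted p = 0.0012) and -0.48 ± 0.089 (adjusted p = 0.0023). NXF1 differed by -0.41 ± 0.14 between the lines, which did not pass (adjusted p = 0.078).

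**Figure D5:**
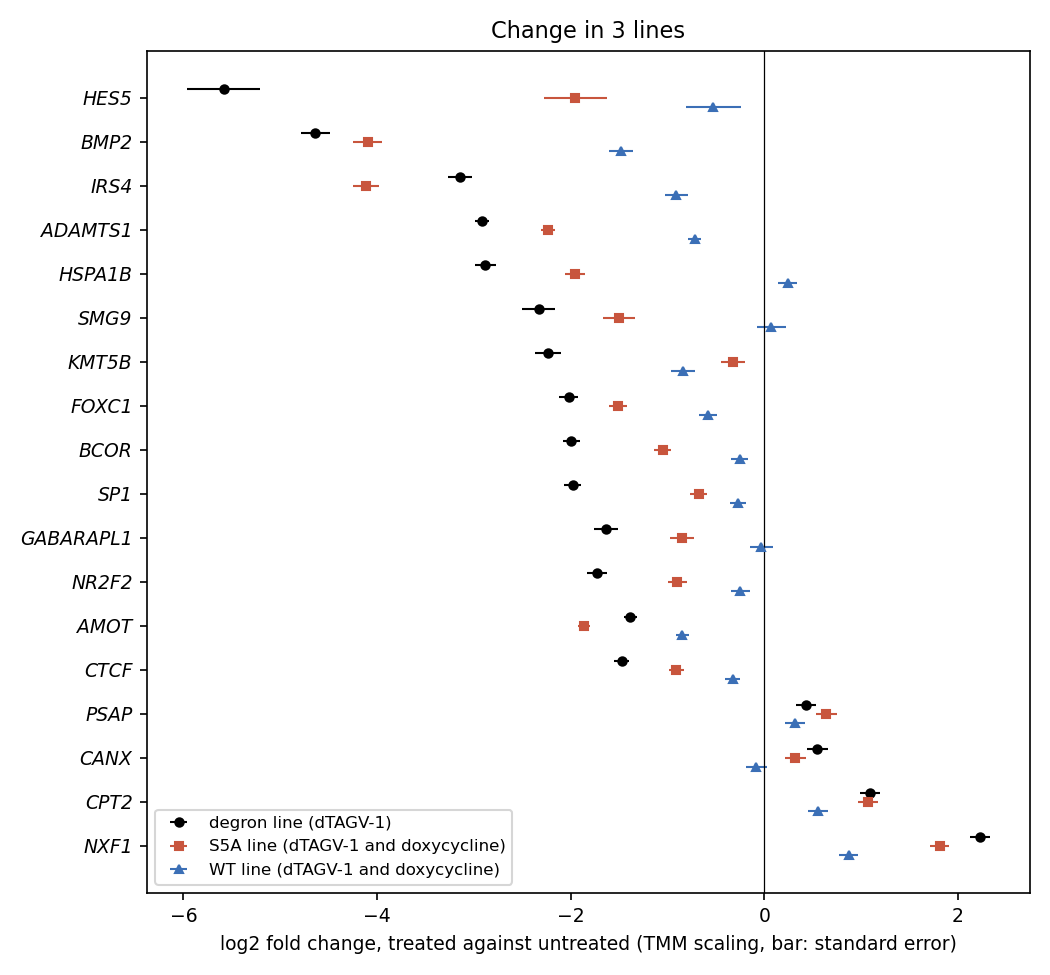
Log2 fold change, treated against untreated (TMM scaling), of 18 genes in the degron, S5A and WT lines, with bars for the standard error (2 libraries per group). BMP2, SP1 and BCOR lie lowest in the degron line and nearest to 0 in WT, while IRS4 and AMOT lie lowest in S5A.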

How the data were processed

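Polyadenylated RNA was sequenced as 150-base read pairs, per the labels' protocols, with 10% fly cells added to each sample. The fly counts are not analysed here. The submitters' processing notes name Trim Galore 0.6.2, STAR 2.7.3a, featureCounts 2.0.1, DESeq2 1.24.0 and the builds hg38 and dm6. The strand setting is not given in the sources used here, so overlapping antisense genes cannot be told apart. The deposited counts are raw whole-number counts per gene from the authors. TPM values, also deposited by the authors, were read but support no result. The authors' deposited tables hold a base mean signal (counts divided by 1 factor per library, then averaged) and for each gene the log2 fold change with its p-value. Only the base means were used: with the counts they give the authors' factors, whose origin is not stated.

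Counts of all 30 libraries (15 groups of 2) were fitted with edgeR 4.0.16 (quasi-likelihood test, TMM, filterByExpr with a minimum count of 10 and total of 15, Benjamini-Hochberg adjustment, threshold 0.05) in R 4.3.3. A gene without counts in a line was left out of that line's medians. Standard errors are those of log2 fold changes. Gene positions came from GENCODE 29 (56659 of 61578 IDs matched). On simulated data with 18366 genes for this comparison, 90% of 2-fold and 100% of 4-fold changes were recovered and 16 unchanged genes were called. The simulation gave every gene the same dispersion (0.0122), changed 100 genes by each fold and held no GC effect. It therefore checks the code and does not measure the error rate in these libraries. Alternatives were DESeq2 1.42.0, other scalings and filters, a GC correction, a replicate block, the lines compared alone and each degron library left out. A GC correction with the block, a crossed pairing and a fit without Mock were added after seeing the data. The genes and lists were chosen with earlier results of these data known. Named genes were, in the main, called genes with the largest changes at a mean of at least 5 or 100 CPM, the extreme and the most abundant members of each list, POLR2A, abundant mRNAs and markers.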

Additional observations from a re-analysis of the deposited data

Results flagged for a closer look

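The change in the degron line differed from that in the WT line for 2403 genes and from that in the S5A line for 1274 genes, by the test of the difference itself (quasi-likelihood test of edgeR over all 30 libraries, adjusted by Benjamini-Hochberg). The treated WT and S5A libraries also received doxycycline, and its part was not tested.

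Among the genes named above, the change in WT minus the change in the degron line on the log2 scale was 5.05 for HES5, 3.16 for BMP2, 3.12 for HSPA1B, 2.41 for SMG9, 2.20 for ADAMTS1, 1.74 for BCOR, 1.71 for SP1, 1.60 for GABARAPL1, 1.40 for KMT5B and -1.35 for NXF1. The change in S5A minus that in the degron line was 3.63 for HES5, 1.91 for KMT5B, 1.30 for SP1, 0.94 for BCOR, 0.83 for NR2F2, 0.68 for ADAMTS1, -0.48 for AMOT and -0.97 for IRS4. Each passed the test of the difference on the TMM scale, and many were named for large changes in the same degron libraries. HSPA1B is uncertain, because its reads can be shared with HSPA1A.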

How the results depend on the processing

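The direction of change depended on the scaling. With the authors' factors 13766 genes were called in the degron line (1395 risen, 12371 fallen), with mitochondrial scaling 1942 rose and 8499 fell, and with a mean of at least 5 CPM required 5669 were called, since fewer genes were tested. The GC correction gave 11705 (6062 risen, 5643 fallen). Leaving out 1 library gave 6727 to 7662. The WT difference (2403 genes) became 6958 with the authors' factors, 5844 with the GC correction, 5414 with that and the replicate block, 573 with these lines alone, which has fewer samples, and 1504 to 2165 without 1 library. The S5A difference (1274) became 386, 4702, 4240 with the first 3 and 633 to 1202 without 1 library. POLR2A was called without the low-count filter (0.51), with the GC correction (0.53) and with crossed pairing (0.55), and ranged from 0.096 to 0.92 without 1 library. Apart from the scaling and the smaller sets, the cause was not tested.

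The replicate numbers are not stated to pair the libraries, and the deviations of same-numbered libraries correlated at -0.75 across 11603 genes. The replicate block gave 1275 genes for the WT and 379 for the S5A difference, and changed no call among 126 named genes. The crossed pairing, added after seeing the data, gave 8645, 1965 and 858 genes.

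Sign changes are listed only for genes called on the TMM scale or on the other scale, so a gene called on neither can have turned without being listed. With mitochondrial scaling these genes turned negative: POU4F1 -0.036, SMARCC1 -0.33, SMC1A -0.41, NCL -0.46, SKI -0.42, PSAP -0.048, HADHA -0.056, ENO1 -0.42, ACTG1 -0.39, HSPD1 -0.29, FKBP1A -0.20, EEF1A1 -0.40 and HSP90AB1 -0.38. With the authors' factors these did: POU4F1 -0.42, ETV3 -0.27, SMARCC1 -0.70, SMC1A -0.78, NOLC1 -0.27, NCL -0.84, EIF4G1 -0.71, SKI -0.80, SMO -0.82, PSAP -0.43, HADHA -0.43, IDH1 -0.091, MDH2 -0.55, CANX -0.31, ENO1 -0.80, ACTG1 -0.77, HSPD1 -0.66, FKBP1A -0.57, EEF1A1 -0.78, EEF2 -0.85, RPL3 -0.71 and HSP90AB1 -0.76. With these factors 13 others that rose, PPARD, CPT2 and LMNA among them, were no longer called.

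With the GC correction 6 bHLH and 6 Polycomb genes rose, as did 6 of ribosome biogenesis, 12 acetyltransferases, deacetylases and BET proteins, 12 ubiquitin-specific peptidases, 7 nucleoporins and 17 autophagy genes; 14 PI3K and mTOR genes, 12 Hippo, 14 SWI/SNF, 12 cohesin and condensin, 12 m6A, 11 histone demethylase and 69 solute carrier genes fell. Of the F-box genes 8 rose and of the translation initiation factors 7 fell with the block. The GC correction also called SMARCC1 (0.14), EIF4G1 (0.14), HSPD1 (0.21) and RPL3 (0.13), and a mean of at least 5 CPM called SMARCC1 (0.21) and HSP90AB1 (0.15).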
